A study of Mus musculus with 8 samples.

Results

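Tgm2, Tollip, Zbtb46, Muc1, Bspry, Cd24a and Acbd7 are 7 protein-coding genes whose transcripts were lower in visceral fat group 2 innate lymphoid cells (ILC2s) from mice on a high-fat diet than from mice on a normal diet. They were picked by name as clear falls that belong to none of the common ILC2, metabolic or mitochondrial gene groups, and they are 7 of the 39527 genes in the deposited table. The difference between the diets is the measure that chose them, so it is given here as a description with no test. The tests below concern genes the choice did not use, namely the families and pathways of the 7 genes and their neighbours on the chromosome.

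ILC2s are tissue lymphocytes without antigen receptors that make type 2 cytokines and, in fat, respond to interleukin-33 through a receptor of the interleukin-1 and Toll-like receptor group. The 7 genes work at different places in a cell. Muc1 encodes a membrane mucin of epithelial surfaces, and Cd24a a small, heavily glycosylated protein held in the membrane by a lipid anchor. Tollip encodes an adaptor that restrains interleukin-1 and Toll-like receptor signalling and takes part in endosomal sorting. Tgm2 encodes tissue transglutaminase, which cross-links proteins, and Acbd7 a small protein with an acyl-CoA-binding domain. Zbtb46 encodes a BTB zinc finger transcription factor best known from classical dendritic cells, and Bspry a protein with a B-box and a SPRY domain that has been described mainly in epithelial cells.

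The high-fat diet libraries, called H1 to H4, and the normal diet libraries, called N1 to N4, were each made from ILC2s sorted from epididymal visceral fat of wild-type male C57BL/6 mice. Mice were 14 weeks old, and each diet had been fed for 8 weeks from an age of 6 weeks. No transgene, drug or deletion is given for either group. The labels do not say whether a library holds 1 animal or a pool, so the spread between libraries may be technical in part. The values carry the name FPKM, fragments per kilobase of gene scaled to the library size, but each also holds a factor of 0.863 to 1.18 that differs by library and repeats every 10 genes of the table. They are printed as deposited, and differences are high-fat minus normal diet on a log2(FPKM + 1) scale unless another scale is named. In bulk RNA of sorted cells, fewer cells of a type and less RNA per cell cannot be told apart.

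The libraries held 7767805 to 13586768 reads, recovered from the deposited values as whole numbers. All 13 ILC2 markers passed the filter and none was under 1 FPKM throughout. Their summed level was 7208 to 8143 FPKM on the high-fat diet, against 8870 to 10817 FPKM on the normal diet, with Rora and Id2 the most abundant. Gata3, Il2ra and Il5 were called lower and none higher, beside 1.88% and 0.975% of all tested genes. Il7r, Areg and Thy1 had higher means on the high-fat diet and were not called, and the others had lower means. Il7r did not overlap, at 203 to 272 FPKM in high-fat libraries and 150 to 199 FPKM in normal diet libraries. The summed levels of 3 other marker lists did not overlap between the diets, with few of their genes called. For 11 endothelial markers the sum was 27.8 to 49.1 FPKM in high-fat libraries and 17.4 to 22.9 FPKM in normal diet libraries. All 11 had a higher mean on the high-fat diet, and Cdh5, Tie1, Kdr, Egfl7 and Tek, none of them tested, did not overlap. Only Vwf of the 3 tested was called, higher on the high-fat diet, and Cdh5 was under 1 FPKM throughout. For 8 adipocyte markers it was 17.5 to 106.9 FPKM in high-fat libraries and 2.89 to 6.18 FPKM in normal diet libraries, most of it Fabp4, the only one of 3 tested that was called, at 9.68 to 104.0 FPKM in high-fat libraries and 0.788 to 1.81 FPKM in normal diet libraries. Without Fabp4 the adipocyte sums overlapped, at 2.80 to 7.77 FPKM in high-fat libraries and 2.11 to 4.37 FPKM in normal diet libraries, and Adipoq, Plin1, Lep and Cfd were under 1 FPKM throughout. For 10 macrophage markers the sum was 8.87 to 10.5 FPKM in high-fat libraries and 4.36 to 8.25 FPKM in normal diet libraries, with neither of the tested genes called. C1qa, Mrc1, Fcgr1 and Mertk were under 1 FPKM throughout. Adgre1, not tested, was lower, at 0.38 ± 0.32 FPKM on the high-fat diet, against 1.43 ± 0.35 FPKM on the normal diet (SD, n = 4 each). The other markers had higher means on the high-fat diet, and C1qb, C1qc and Mertk, none of them tested, did not overlap. C1qb was at 0.429 to 1.63 FPKM in high-fat libraries and 0 FPKM in normal diet libraries. Mast cell markers were abundant on both diets, with sums of 1700 to 7788 FPKM and 3715 to 7925 FPKM for 6 genes in high-fat and normal diet libraries. T cell markers summed to 178 to 521 FPKM in high-fat libraries and 187 to 339 FPKM in normal diet libraries. For B cell markers the sums were 103 to 247 FPKM in high-fat libraries and 116 to 369 FPKM in normal diet libraries, most of it Ighm. All of these sums overlapped between the diets. The part of these transcripts in the differences of the 7 genes was not tested.

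Promoter sequences were available for 5 of the 7 genes (RefSeq, GRCm38.p6, 250 bases before to 50 bases after the start site). Those of Muc1, Bspry and Zbtb46 are shown because they are the only ones among these 5 that hold any of the 9 motifs searched, and because they show how different the promoters of genes that are lower together can be. Capitals mark TATAAA in Muc1 and Bspry and TGANTCA in Zbtb46, and each sequence reads 5′ to 3′ on the strand of its gene.
Muc1 (chr3:89228806-89229105, plus strand): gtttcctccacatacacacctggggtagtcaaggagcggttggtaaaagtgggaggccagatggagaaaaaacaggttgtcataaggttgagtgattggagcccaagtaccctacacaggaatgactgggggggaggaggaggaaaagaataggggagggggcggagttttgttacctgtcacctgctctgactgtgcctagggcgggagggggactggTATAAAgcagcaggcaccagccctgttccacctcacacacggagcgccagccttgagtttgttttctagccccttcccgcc
Bspry (chr4:62479812-62480111, plus strand): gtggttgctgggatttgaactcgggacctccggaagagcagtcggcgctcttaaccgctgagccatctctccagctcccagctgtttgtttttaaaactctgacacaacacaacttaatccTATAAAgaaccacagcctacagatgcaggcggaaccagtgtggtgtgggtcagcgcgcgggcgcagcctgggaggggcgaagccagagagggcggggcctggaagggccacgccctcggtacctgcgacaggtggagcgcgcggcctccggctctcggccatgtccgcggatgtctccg
Zbtb46 (chr2:181424339-181424638, minus strand): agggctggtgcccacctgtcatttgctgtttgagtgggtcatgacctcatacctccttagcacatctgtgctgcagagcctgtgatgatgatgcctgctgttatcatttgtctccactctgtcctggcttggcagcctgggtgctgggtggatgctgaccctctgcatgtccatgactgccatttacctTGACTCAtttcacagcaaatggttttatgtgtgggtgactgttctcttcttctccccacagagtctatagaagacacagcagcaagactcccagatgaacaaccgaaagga

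In Muc1 the TATAAA begins 31 bases before the start site, the distance typical of a TATA box, and in Bspry it begins 129 bases before it. TATAAA on either strand occurs in 13.6% of 32851 promoter windows of the same length. TGANTCA, the letters of AP-1 sites, begins 61 bases before the start in Zbtb46 and occurs in 7.81% of the windows. The Zbtb46 window belongs to an internal start site, 35038 bases into the gene as GENCODE M21 draws it, and that of Tollip likewise lies 16046 bases into its gene. The other motifs, searched on both strands, were AGATAA (in 11.2% of all windows), a strict NF-kappaB motif (0.155%), a looser NF-kappaB motif that includes it (0.411%), TTCNNNGAA (8.30%), GCGTGGGCG (0.612%), the direct repeat of nuclear receptors (0.0396%) and CACGTG (7.15%), and none was in the 5 windows. The windows of Tollip and Bspry each had 23 CpG dinucleotides and 62.0% G and C, that of Acbd7 had 10 CpG, that of Muc1 6 and that of Zbtb46 1, where the median window had 7 CpG and 52.7% G and C. No motif was shared by all 5 promoters.

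All 7 genes were above 1 FPKM in every library and so passed the filter on low values (at least 1 FPKM in 4 libraries, 11483 genes). For all 7 every high-fat library lay below every normal diet library. Over the tested genes 6.76% separated in that way and 4.31% in the opposite way. By limma at an adjusted p of 0.05, 1.88% were called lower, as all 7 were, 0.975% higher and 2.86% in either direction. Since the genes were chosen on this contrast, nothing is read from these counts. Their differences ran from -1.94 to -1.18 with a median of -1.34, beside a median of -0.02 over all tested genes and of -0.81 over the 216 genes called lower. Cd24a, Tgm2, Acbd7, Zbtb46, Bspry, Tollip and Muc1 stood at places 3, 9, 10, 14, 19, 22 and 24 among those 216 by size of difference. The rule that chose them states no threshold.

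**Figure D1:**
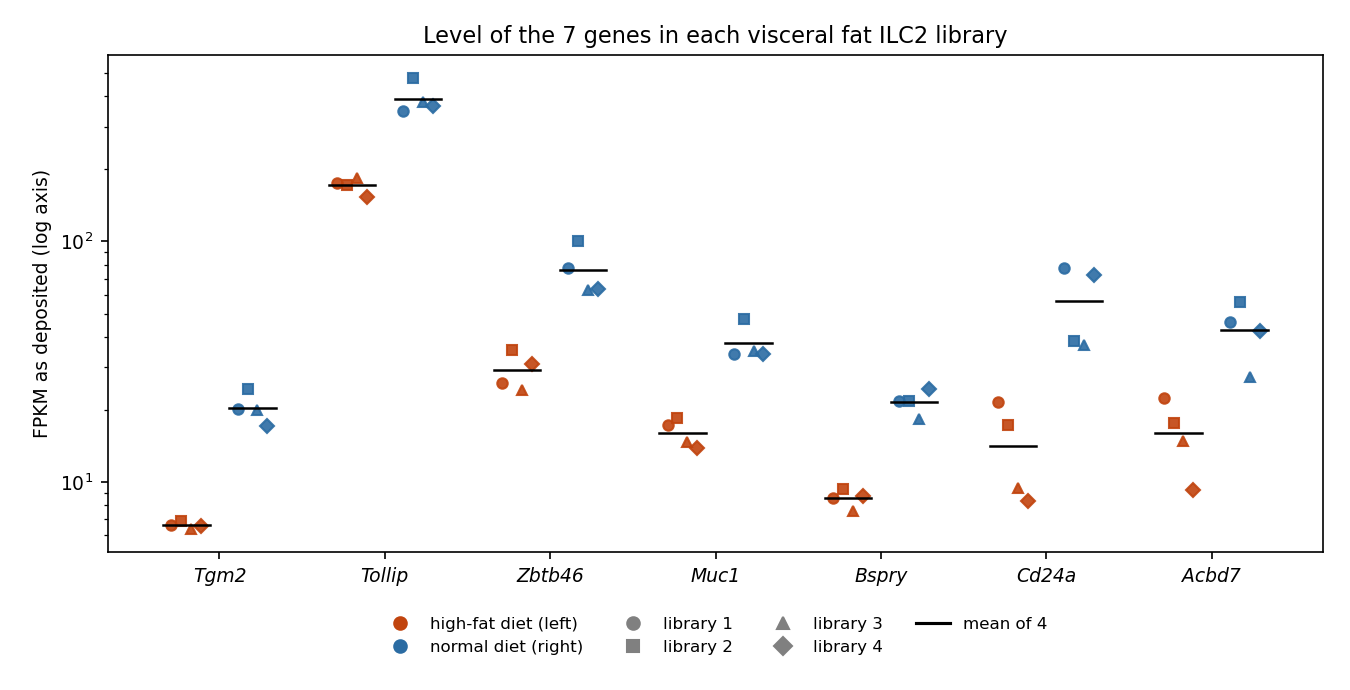
FPKM of each of the 7 genes (log axis) in the 4 high-fat diet libraries, on the left of each gene in orange, and the 4 normal diet libraries, on the right in blue. Shapes give the library number and lines the mean of 4. In every gene the highest high-fat library lies under the lowest normal diet library, from 40.1% of it in Tgm2 to 81.5% of it in Acbd7.

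Among the surface proteins, Muc1 (ENSMUSG00000042784, chromosome 3, 89229057 to 89233381 in mm10) had 17.2, 18.4, 14.7 and 13.8 FPKM in H1 to H4, against 34.2, 47.6, 35.2 and 33.9 FPKM in N1 to N4. N2 stood above the other normal diet libraries, which lay close together. The means were 16.0 ± 2.16 FPKM on the high-fat diet and 37.7 ± 6.62 FPKM on the normal diet (SD, n = 4 each), so the high-fat mean was 42.5% of the other, and the difference was -1.18 with a standard error of 0.16. Of the other genes named as mucins Muc13 alone was tested, at 0.594 to 3.34 FPKM in high-fat libraries and 1.02 to 4.01 FPKM in normal diet libraries, and Muc2, Muc4, Muc5b and Muc6 had means under 1 FPKM on both diets. Muc3a and Muc16 carry values below 0 in the table and were not used.

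Cd24a (ENSMUSG00000047139, chromosome 10, 43578284 to 43584265) had the largest difference and the widest spread of the 7. It had 21.6, 17.3, 9.42 and 8.34 FPKM in H1 to H4, against 77.2, 38.6, 37.2 and 72.8 FPKM in N1 to N4. Within each diet a pair of libraries was high (H1 and H2, N1 and N4) and a pair was low. With the repeating factor divided out, N4 rather than N1 was the highest. The mean was 14.1 ± 6.34 FPKM on the high-fat diet and 56.5 ± 21.5 FPKM on the normal diet (SD, n = 4 each), 25.1% of it, and the difference was -1.94 with a standard error of 0.35. Its spread within the diets, an SD of 0.59 on the log2 scale, was larger than that of 93.8% of the tested genes, whose median was 0.26. Copies of Cd24a elsewhere in the genome could take or give reads, depending on how the authors counted.

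Tollip (ENSMUSG00000025139, chromosome 7, 141874813 to 141918507) was the most abundant of the 7 and belonged to the upper part of the tested genes on both diets, above 95.3% of them on the high-fat and above 97.9% on the normal diet. It had 174.7, 172.0, 182.8 and 153.5 FPKM in H1 to H4, against 347.8, 478.4, 377.9 and 363.5 FPKM in N1 to N4. The high-fat libraries lay close together, and N2 was again the highest of the normal diet. The mean was 170.8 ± 12.4 FPKM on the high-fat diet, 43.6% of the 391.9 ± 59.0 FPKM on the normal diet (SD, n = 4 each), and the difference was -1.19 with a standard error of 0.15.

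Tgm2 (ENSMUSG00000037820, chromosome 2, 158116402 to 158146436) was even among the high-fat libraries in the values as deposited. It had 6.66, 6.87, 6.36 and 6.58 FPKM in H1 to H4, against 20.1, 24.3, 19.9 and 17.1 FPKM in N1 to N4. The coefficient of variation of the deposited values was 3.17% among the high-fat libraries and 14.6% among the normal diet libraries. With 206 to 318 reads per high-fat library, counting alone would give about 6.24%. The deposited values also hold the repeating factor, so their smaller spread does not measure how even the reads were. The highest high-fat library reached 40.1% of the lowest normal diet library, the widest gap of the 7 genes. The mean was 6.61 ± 0.21 FPKM on the high-fat diet and 20.4 ± 2.97 FPKM on the normal diet (SD, n = 4 each), a share of 32.5%, and the difference was -1.48 with a standard error of 0.15.

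Acbd7 (ENSMUSG00000026644, chromosome 2, 3336168 to 3340993) had the fewest reads, 66 to 140 per high-fat library and 193 to 313 per normal diet library. It had 22.3, 17.6, 14.8 and 9.27 FPKM in H1 to H4, against 46.4, 55.9, 27.3 and 42.3 FPKM in N1 to N4. The groups came closest here, H1 reaching 81.5% of N3. The mean was 16.0 ± 5.44 FPKM on the high-fat diet and 43.0 ± 11.9 FPKM on the normal diet (SD, n = 4 each), a share of 37.2%, and the difference was -1.39 with a standard error of 0.26. Its coefficient of variation was 34.0% on the high-fat diet and 27.6% on the normal diet, where counting alone would give about 10.4% and 6.52%. The deposited values behind this spread also hold the repeating factor.

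Zbtb46 (ENSMUSG00000027583, chromosome 2, 181387762 to 181459426) had 25.8, 35.4, 24.1 and 31.1 FPKM in H1 to H4, against 77.4, 99.9, 63.0 and 63.5 FPKM in N1 to N4. The library numbered 2 was the highest on both diets. The mean was 29.1 ± 5.16 FPKM on the high-fat diet and 76.0 ± 17.3 FPKM on the normal diet (SD, n = 4 each), a share of 38.3%, and the difference was -1.34 with a standard error of 0.18. Of 13 dendritic cell markers, Clec9a was at 0 to 0.0243 FPKM in high-fat libraries and 0 to 0.0463 FPKM in normal diet libraries, and Itgax and Cd209a were also under 1 FPKM in every library, as was Siglech, a marker of plasmacytoid cells. Others were present, with Ccr7 at 22.5 to 27.8 FPKM in high-fat libraries and 31.3 to 45.3 FPKM in normal diet libraries, Clec10a at 1.15 to 5.72 FPKM in high-fat libraries and 5.36 to 9.96 FPKM in normal diet libraries, and Irf8 at 3.53 to 4.73 FPKM in high-fat libraries and 3.61 to 8.31 FPKM in normal diet libraries. None of these 3 was called (limma, adjusted p = 0.0854, 0.172 and 0.526). The summed level of the list was 267 to 391 FPKM in high-fat libraries and 290 to 393 FPKM in normal diet libraries, most of it Cst3, which many cells make. Of the 7 markers of that list that were tested, Xcr1, a receptor of a classical dendritic cell subset, was called lower, at 5.55 ± 0.59 FPKM on the high-fat diet and 10.4 ± 1.52 FPKM on the normal diet, and H2-Ab1 higher, at 30.6 ± 11.5 FPKM on the high-fat diet and 10.02 ± 4.23 FPKM on the normal diet (SD, n = 4 each; limma, adjusted p = 0.0130 and 0.0274). Their part in the difference of Zbtb46 was not tested.

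Bspry (ENSMUSG00000028392, chromosome 4, 62480053 to 62497298) had 8.60, 9.37, 7.61 and 8.73 FPKM in H1 to H4, against 21.7, 21.7, 18.4 and 24.5 FPKM in N1 to N4. Both groups were even, and N4 rather than N2 was the highest. The mean was 8.58 ± 0.73 FPKM on the high-fat diet, 39.8% of the 21.6 ± 2.49 FPKM on the normal diet (SD, n = 4 each), and the difference was -1.23 with a standard error of 0.14. On the values as deposited, which hold the repeating factor, its within-diet SD of 0.14 was larger than that of only 6.59% of the tested genes. Muc1, Bspry and Cd24a are all familiar from epithelial cells, so the 19 epithelial markers are given beside them. Their summed level was 119 to 167 FPKM in high-fat libraries and 129 to 176 FPKM in normal diet libraries. Most of it was Spint2, at 91.0 to 131 FPKM in high-fat libraries and 101 to 143 FPKM in normal diet libraries. Of the 19 markers 10, among them Krt8, Krt18, Krt19, Cldn3 and Cldn4, were under 1 FPKM in every library. Epcam stood at 16.2 to 38.8 FPKM in high-fat libraries and 20.2 to 32.6 FPKM in normal diet libraries, a difference of -0.05 (limma, adjusted p = 0.948).

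**Figure D2:**
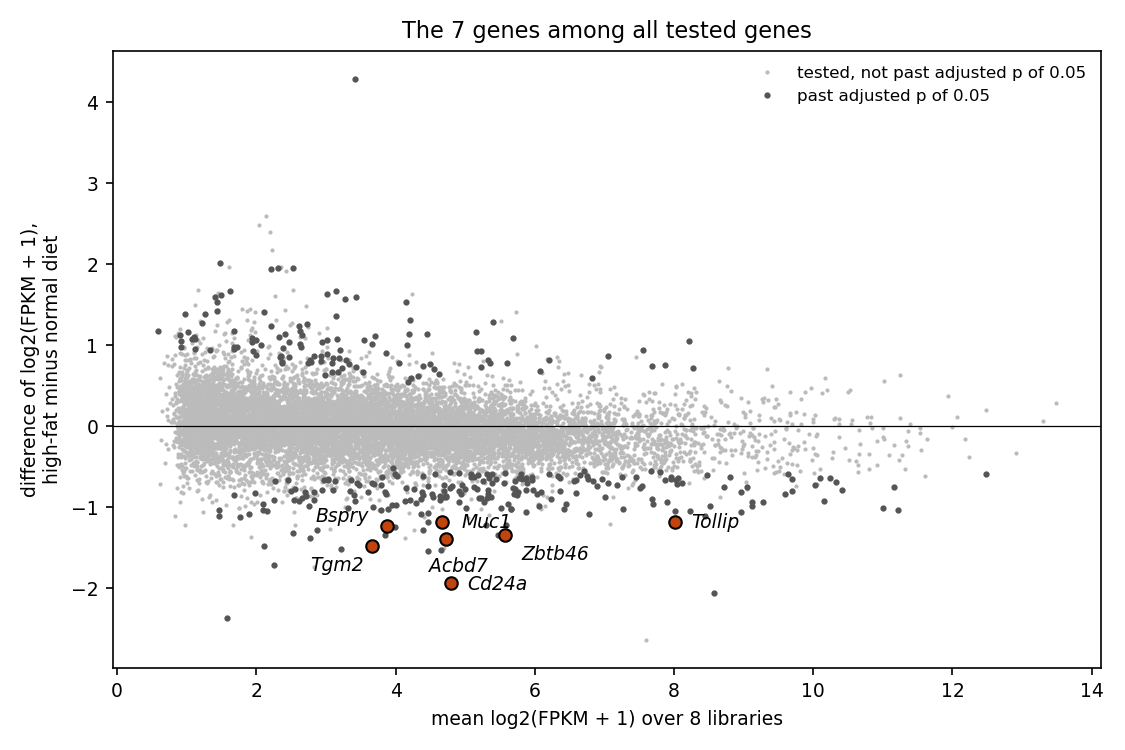
Difference between the diets (high-fat minus normal, log2(FPKM + 1)) against the mean level for all 11483 tested genes, with the 7 genes in orange. The 7 lie at -1.94 to -1.18 over a wide range of levels, with Tollip at a higher level than the other 6, and other called genes, in dark grey, lie beside them.

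Ordered by level on the high-fat diet, the genes ran Tollip, Zbtb46, Muc1, Acbd7, Cd24a, Bspry and Tgm2, and on the normal diet Tollip, Zbtb46, Cd24a, Acbd7, Muc1, Bspry and Tgm2. Between neighbours in this order, the libraries of Tollip and Zbtb46, of Zbtb46 and Muc1, and of Bspry and Tgm2 did not overlap on the high-fat diet. On the normal diet those of Tollip and Zbtb46 and of Muc1 and Bspry did not overlap. All other neighbours overlapped, so their order does not exceed the spread.

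The choice used the difference between the diets and not the deviations of single libraries from their diet mean, which therefore describe the genes in another way. The deviations were taken on the values as deposited, so they hold the repeating factor of 0.863 to 1.18. Genes at the same place in its cycle of 10 share that factor, which can enter their correlation. Tgm2, Tollip and Muc1 share it with each other, and Zbtb46, Bspry, Cd24a and Acbd7 share another. The part of these factors in the deviations was not tested. Across the 8 libraries, which all 7 genes share, the correlation of these deviations had a median of 0.40 over the 21 pairs of genes and ran from -0.33 to 0.80, with 16 pairs above 0. Tgm2, Tollip, Zbtb46 and Muc1 formed most of the high values, though Tollip with Zbtb46 was at 0.386 and Muc1 with Acbd7 at 0.684. The correlation was 0.80 for Tollip with Muc1 and 0.78 for Tgm2 with Muc1, pairs that share the factor. It was 0.78 for Tgm2 with Zbtb46, which do not share it. On the normal diet, Tgm2, Tollip, Zbtb46 and Muc1 were all highest in N2, and so was Acbd7, also with the repeating factor divided out. Cd24a was at -0.33 with Tgm2 and -0.29 with Tollip, which do not share its factor. It was at 0.63 with Acbd7 and 0.58 with Bspry, which do share it. With N2 and H2 left out together, the differences of the 7 genes were -1.41 for Tgm2, -1.09 for Tollip, -1.30 for Zbtb46, -1.13 for Muc1, -1.27 for Bspry, -2.22 for Cd24a and -1.32 for Acbd7.

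**Figure D3:**
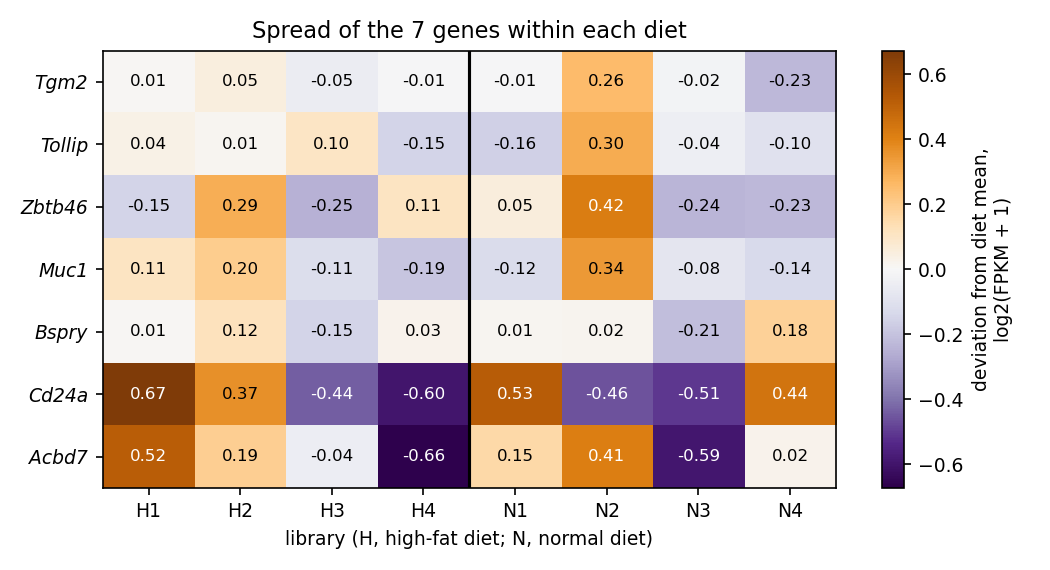
Deviation of each of the 7 genes from its diet mean (log2(FPKM + 1)) in the 4 high-fat libraries, on the left, and the 4 normal diet libraries, on the right. Values are as deposited and hold the repeating factor. Tgm2, Tollip, Zbtb46 and Muc1 are at 0.26 to 0.42 in N2, and Cd24a is at -0.46 there and at 0.67 in H1.

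Genes with the most similar pattern over the 8 libraries reached a Pearson correlation of 0.969 to 0.996. These are the 3 highest for each gene, a description with no test. This correlation includes the difference between the diets on which the chosen genes were picked. It therefore cannot show a likeness beyond that difference. Of the 17 distinct genes in these lists other than the chosen ones, limma called 12 lower and 0 higher. Over all tested genes 1.88% were called lower. Tgm2 and Tollip were in each other's list at 0.986. Dnaja1, a heat shock protein of the DNAJ group, and Slc16a3, a lactate exporter, were on the lists of both Tgm2 (0.991 and 0.985) and Muc1 (0.989 and 0.990). Tollip was also followed by Spcs3, a signal peptidase subunit (0.988), and Tbrg4 (0.986). Zbtb46 was followed by Isy1 (0.988), Errfi1, a feedback inhibitor of the epidermal growth factor receptor (0.988), and Lilrb4a, an inhibitory receptor (0.986). For Bspry these were Mrto4 (0.987), Ston2 (0.986) and Man1b1 (0.981), for Cd24a Sfxn2 (0.973) and Aqp9 (0.969), and for Muc1 also Ppp1r11 (0.992).

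Acbd7 was closest to Ufm1, a ubiquitin-like modifier, at 0.996, then to Ppt1, a lysosomal thioesterase that removes fatty acyl groups from proteins, at 0.980 and Hs3st1 at 0.976. Ufm1 also came first by deviations within the diets, at 0.986. In that second list, the 2 highest genes for each of the 7, the correlation was 0.947 to 0.988. These are the highest values over all named tested genes from only 8 libraries, so high values come in part from the picking. The deviations also hold the repeating factor. No shared function is read from either list. Stam2, an endosomal sorting protein, led for Tollip (0.988), Smg1 for Tgm2 (0.980), Chtf8 for Zbtb46 (0.965), St13 for Muc1 (0.985), Il34 for Bspry (0.971) and Tatdn1 for Cd24a (0.980). None of the 14 genes of this second list was called different between the diets by limma, 3 had an unadjusted p under 0.05, and voom on recovered reads called 0.

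Few partner genes of the 7 were called. Over 11 lists together, 149 partner genes were tested, of which 2 fell, 0 rose and 147 did not pass (limma, adjusted over all tested genes). That is 1.34% lower, near the 1.88% of all tested genes, and their median difference was -0.03 beside -0.02 over all tested genes. An unadjusted p under 0.05 was found for 28 of the 149, beside 18.1% of all tested genes, and voom on recovered reads called 20 of them, beside 13.1% of all tested genes. The partner lists were drawn up with earlier results of these data known.

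**Figure D4:**
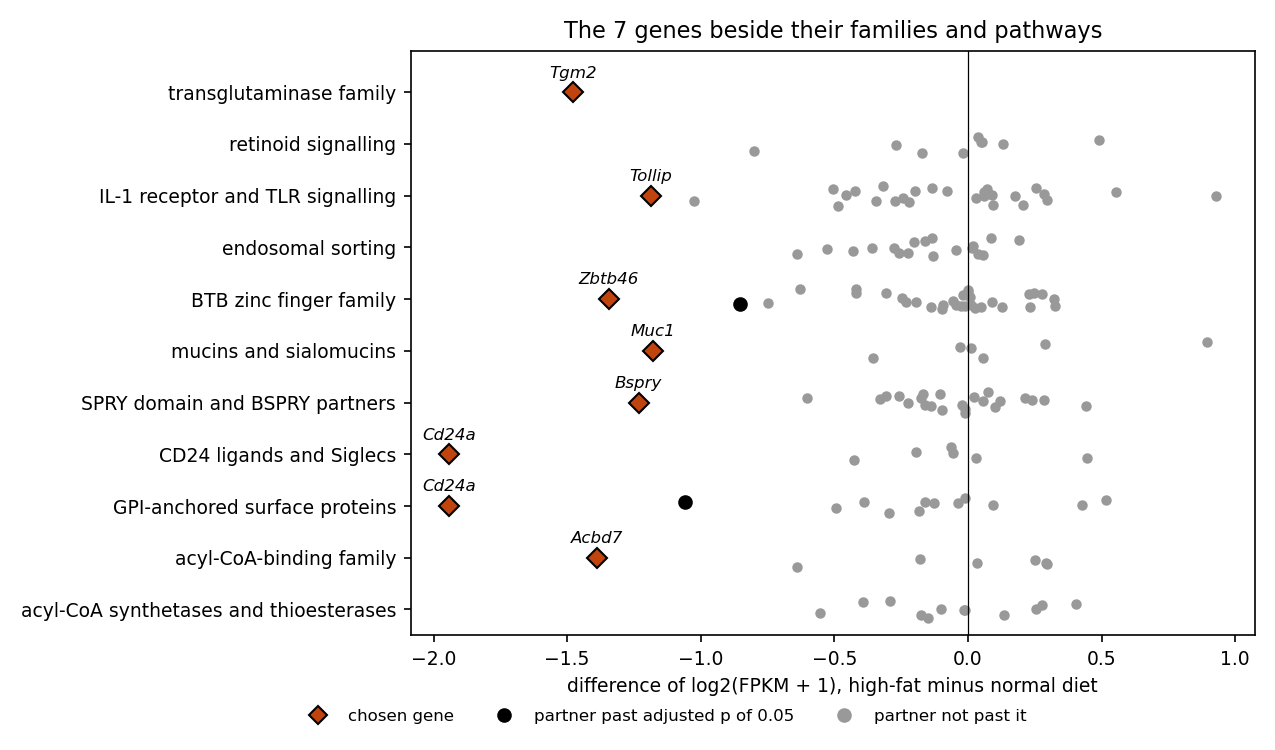
Difference between the diets (high-fat minus normal, log2(FPKM + 1)) for the tested members of 11 families and pathways, each point a gene, with the 7 chosen genes as orange diamonds and called partner genes in black. The diamonds lie at -1.94 to -1.18, and Zbtb16 (-0.85) and Plaur (-1.06) are the 2 black points.

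Of the 8 other transglutaminase genes none passed the filter. By its highest library F13a1, the coagulation transglutaminase, led, at 0.409 to 2.70 FPKM in high-fat libraries and 0 to 1.70 FPKM in normal diet libraries, and on the normal diet mean Tgm4 was above it, at 1.01 ± 0.71 FPKM on the high-fat diet and 0.92 ± 0.46 FPKM on the normal diet (SD, n = 4 each). Both were below Tgm2 in every library. Tgm2 is a classical retinoic acid target in many cells. Of 19 genes of retinoid signalling 9 were tested and none was called (2 at an unadjusted p under 0.05, 1 by voom on reads), with a median of 0.04. Rara, a retinoic acid receptor, stood at 32.8 ± 6.58 FPKM on the high-fat diet and 29.7 ± 4.598 FPKM on the normal diet (0.13, adjusted p = 0.756), and Rdh11, a retinol dehydrogenase, at 12.9 ± 1.09 and 12.4 ± 0.94 FPKM in high-fat and normal diet libraries (0.05, adjusted p = 0.892; SD, n = 4 each, limma). On recovered reads Rara was called higher, at 0.39 (limma voom, adjusted p = 0.0290).

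Around Tollip, none of 26 tested genes of interleukin-1 receptor and Toll-like receptor signalling was called by limma, with 8 at an unadjusted p under 0.05 and 3 called by voom on reads, and the median was -0.02. Il1rl1, the interleukin-33 receptor, had 282 ± 13.7 FPKM on the high-fat diet and 356 ± 59.0 FPKM on the normal diet (-0.32, adjusted p = 0.273). Tnfaip3, which encodes the ubiquitin-editing inhibitor A20, had 2450 ± 490 FPKM on the high-fat diet and 2878 ± 400 FPKM on the normal diet (-0.24, adjusted p = 0.485; SD, n = 4 each). None of 18 tested genes of endosomal sorting was called (2 at an unadjusted p under 0.05 and 2 by voom on reads), with Rab7, a late endosome GTPase, at -0.28 (limma, adjusted p = 0.499) and Chmp2a, an ESCRT subunit, at -0.43 (limma, adjusted p = 0.174). The median of that list was -0.15.

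Among BTB zinc finger genes 1 of 31 fell and none rose, with 4 at an unadjusted p under 0.05 and 3 called by voom on reads. Zbtb16, the transcription factor PLZF of innate lymphoid precursors, had 1.39, 1.66, 1.43 and 1.11 FPKM in H1 to H4, against 3.61, 3.15, 2.93 and 3.64 FPKM in N1 to N4. It did not overlap between the diets but is a low transcript, and limma gave a difference of -0.85, a standard error of 0.18 and an adjusted p of 0.0212. Leaving out any 1 library other than H2 or N3 ended the call, with the adjusted p reaching 0.0742, and so did dropping the filter on low values (adjusted p = 0.0567). The median of the family was -0.02.

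Around Muc1 none of 6 tested mucins and sialomucins was called by limma (1 at an unadjusted p under 0.05, 1 by voom on reads). Selplg, the selectin ligand PSGL-1, was at 778 ± 105 FPKM on the high-fat diet and 808 ± 211 FPKM on the normal diet (-0.03, adjusted p = 0.957), and Cd164, a sialomucin, at 70.6 ± 11.8 and 67.6 ± 8.98 FPKM in high-fat and normal diet libraries (0.06, adjusted p = 0.899; SD, n = 4 each). On recovered reads Cd164 was called higher, at 0.30 (limma voom, adjusted p = 0.0351). Selplg was at 0.15 under quantile normalization, so its direction depends on the scaling. In the list of SPRY domain genes and binding partners of BSPRY none of 23 was called (3 at an unadjusted p under 0.05, 4 by voom on reads), with Ywhaz at -0.11 and Ywhaq at -0.18 (limma, adjusted p = 0.802 and 0.577), both adaptors that bind phosphorylated proteins and both above 0 under quantile normalization.

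Siglecg, the receptor that binds CD24 in mice, was under 1 FPKM in every library, at 0.365 to 0.716 FPKM in high-fat libraries and 0.324 to 0.566 FPKM in normal diet libraries. None of the 6 tested genes of that list was called by limma, 0 had an unadjusted p under 0.05 and 0 were called by voom on reads, with Hmgb1 at -0.06 and Lyn, a Src-family kinase, at -0.19 (adjusted p = 0.876 and 0.531), and Hmgb1 at 0.10 under quantile normalization. Of 12 other tested proteins with a lipid anchor like that of CD24, Plaur alone fell. Plaur, the urokinase receptor, had 347, 436, 334 and 284 FPKM in H1 to H4, against 683, 918, 639 and 677 FPKM in N1 to N4. It did not overlap between the diets and limma gave a difference of -1.06, a standard error of 0.17 and an adjusted p of 0.00441, a call that held in all 19 other settings. Of the 12, 4 had an unadjusted p under 0.05 and 4 were called by voom on reads. The remaining 11 did not pass, and Thy1 and Ly6a, both familiar ILC2 surface proteins, were at 0.09 and -0.49 (adjusted p = 0.876 and 0.230).

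Acbd7 belongs to a small family in which it was not the most abundant. Dbi, the founding acyl-CoA-binding protein, stood at 87.5, 55.9, 70.3 and 74.2 FPKM in H1 to H4, against 68.4, 88.1, 85.3 and 81.8 FPKM in N1 to N4, and the diets overlapped (-0.18, limma, adjusted p = 0.609). Acbd6 stood at 33.4 ± 5.98 FPKM on the high-fat diet and 32.3 ± 2.64 FPKM on the normal diet (SD, n = 4 each; 0.03, adjusted p = 0.943), between the means of Acbd7 on the normal and the high-fat diet. Of the 6 tested relatives none was called by limma, 1 had an unadjusted p under 0.05 and 1 was called by voom on reads. None of 12 acyl-CoA synthetases and thioesterases was called either (3 at an unadjusted p under 0.05, 1 by voom on reads), with Acot7 at 0.13 and Acsl5 at -0.29 (limma, adjusted p = 0.727 and 0.290).

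The 7 genes lie on 5 chromosomes, and Tgm2, Zbtb46 and Acbd7 share chromosome 2 at distant places. The nearest tested gene on each side gave 14 neighbours, of which limma called 0, with 1 at an unadjusted p under 0.05 and 0 called by voom on reads. Their differences ran from -0.39 to 0.56 with a median of -0.06, and 8 of 14 were below 0, beside 52.1% of all tested genes. Rprd1b overlaps part of Tgm2 on the other strand, and the library type does not mark the strand, so reads there cannot be assigned to one of the pair. Rprd1b had 12.8 ± 1.84 FPKM on the high-fat diet and 11.7 ± 1.93 FPKM on the normal diet (SD, n = 4 each; 0.13, limma, adjusted p = 0.740).

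None of the closest neighbours passed the test. Trim46 lies 796 bases from Muc1 and stood at -0.29 (limma, adjusted p = 0.433), Hdhd3 lies 1710 bases from Bspry at -0.39 (adjusted p = 0.543), Rpp38 3525 bases from Acbd7 at -0.19 (adjusted p = 0.645) and Zgpat 4134 bases from Zbtb46 at -0.11 (adjusted p = 0.810). On the other side of Bspry, Prpf4 was lower without overlap, at 7.25 ± 0.68 FPKM on the high-fat diet and 9.84 ± 1.37 FPKM on the normal diet (SD, n = 4 each), and did not pass (-0.39, limma, adjusted p = 0.189). The tested genes beside Tollip were Ap2a2 at -0.03 and Mob2 at 0.08, and those beside Cd24a were 1700021F05Rik at 0.27 and Qrsl1 at -0.11.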

How the data were processed

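RNA-seq libraries of sorted visceral fat ILC2s (4 per diet) were made from SMART-Seq HT cDNA with transposase, per the labels' protocols, and HISAT2, Cufflinks and mm10 are named in the submitters' processing notes, without versions; for annotation and filters nothing was stated. The values the authors deposited carry FPKM in their column names and are treated as a score, because 14605 of 39527 genes hold values below 0 that the authors' column name cannot explain; those genes were left out. Whole reads were recovered for 100% of the values of the 24107 genes above 0 (relative tolerance 1e-06), after a factor of 0.863 to 1.18 that repeats every 10 rows was taken into account, with gene lengths in steps of 0.5 bases.

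Differences of log2(FPKM + 1) were tested with limma 3.58.1 in R 4.3.3 (trended, robust) on 11483 genes with at least 1 FPKM in 4 libraries, with Benjamini-Hochberg adjustment at 0.05 over all of them. The fit was tested on simulated data. The 7 genes and all lists were chosen with earlier results of these data known. Of each partner list, the called genes or, with none, the 2 most abundant were to be named, with the nearest tested gene on each side of each of the 7 and the genes most like it, of which 1 is not reported here; other genes named (Muc13, Muc2, Muc4, Muc5b, Muc6, F13a1, Tgm4, Siglecg, Thy1, Ly6a and the cell type markers) were chosen after their values were seen. Gene positions come from GENCODE M21 (mm10). Reads are not independent molecules, so the counting error given is a lower limit. Alternatives covered pseudocount, filter, scaling, the repeating factor, recovered reads with voom, plain moderation, a replicate block and left-out libraries.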

Additional observations from a re-analysis of the deposited data

Results flagged for a closer look

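In 10 of 138 sets of 4 libraries of 1 diet, over 69 genes, a single library stood far from the other 3, and chance alone gives about 1 in 20. Of these, 7 were N2. Muc1 had 47.6 FPKM in N2 and 33.9 to 35.2 FPKM in the other normal diet libraries. Plaur had 918 FPKM in N2 and 639 to 683 FPKM in the others. Errfi1 had 97.6 FPKM in N2 against 62.4 to 67.4 FPKM, and Ikzf3 had 203 FPKM against 161 to 165 FPKM. Map3k2 had 28.0 FPKM in N2 against 18.7 to 19.0 FPKM, Chtf8 had 6.58 FPKM against 3.10 to 3.49 FPKM, and Slc20a2 had 4.84 FPKM against 2.96 to 3.17 FPKM. Several of these genes were picked for their likeness to Tollip, Zbtb46 or Muc1, which are themselves highest in N2.

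The other 3 were high-fat diet libraries on the low side. Selplg had 622 FPKM in H2 and 811 to 840 FPKM in the other high-fat libraries. Spcs3 had 515 FPKM in H4 against 591 to 599.8 FPKM, and Ppt1 had 60.2 FPKM in H4 against 68.1 to 69.0 FPKM.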

How the results depend on the processing

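None of the 7 genes changed direction in 19 other settings, and their differences ran from -1.60 to -1.39 for Tgm2, -1.24 to -1.002 for Tollip, -1.44 to -1.16 for Zbtb46, -1.25 to -1.06 for Muc1, -1.32 to -1.12 for Bspry, -2.22 to -1.74 for Cd24a and -1.59 to -1.17 for Acbd7. Every high-fat library of these genes lay below every normal diet library, so leaving out libraries could not change the direction. Cd24a was not called without H3, H4 or N1, Acbd7 not without H3, N1 or N2, and neither without H2 and N2 together. Since the 7 genes were chosen on this contrast, nothing is read from their direction or calls. Main counts were 216 lower, 112 higher and 2 partner genes. They were 89, 41 and 1 with no filter, 331, 141 and 4 with a filter of 5 FPKM (Zbtb16 is then not tested), 204, 226 and 5 under quantile normalization, 305, 172 and 4 with equal medians, 386, 185 and 7 with the repeating factor divided out, 132 and 89 lower and higher with plain moderation, and 216, 242 and 5 without H2 and N2. Voom on recovered reads gave 405, 1103 and 20 and moved the median of all genes by 0.15. The share of calls that were lower was 65.9% in the main fit, 47.4% under quantile normalization, 26.9% on recovered reads and 47.2% without H2 and N2. Leaving out 1 library gave 84 to 281 lower, 40 to 255 higher and 1 to 9 partner genes. With the replicate number as a block they were 113, 78 and 1, and Zbtb16 had an adjusted p of 0.0791 (limma). Same-numbered libraries did not deviate together (r of -0.07, -0.25, -0.07 and 0.08), on values that hold the repeating factor. These correlations show no pairing by number but cannot exclude one. The cause of these changes was not tested.

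Uncalled genes near 0 changed sign. Under quantile normalization Selplg was at 0.15, Ywhaz at 0.11, Ywhaq at 0.011, Hmgb1 at 0.099 and Ap2a2 at 0.015. On recovered reads Selplg was at 0.077, Ywhaz at 0.14, Hmgb1 at 0.13, Dbi at 0.024, Ap2a2 at 0.065, Zgpat at 0.12 and Qrsl1 at 0.0078. With the factor divided out Acbd6 was at -0.022 and Mob2 at -0.012. Without H2 and N2, Rab7 was at 0.016, Selplg at 0.23, Ywhaz at 0.0011, Hmgb1 at 0.069, Acbd6 at -0.044, Gm14201 at -0.19 and Ap2a2 at 0.0013. With 1 library left out, ranges were -0.14 to 0.12 for Selplg, -0.023 to 0.15 for Cd164, -0.17 to 0.018 for Hmgb1, -0.039 to 0.16 for Acbd6, -0.030 to 0.63 for Gm14201, -0.16 to 0.037 for Ap2a2, -0.032 to 0.20 for Mob2, -0.27 to 0.026 for Thbs3 and -0.19 to 0.043 for Qrsl1.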
